A study of Homo sapiens with 22 samples.

Results

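H3R2me2a regions whose nearest transcript belongs to a named long non-coding gene were described here across a pair of H3R2me2a profiles of NT2/D1 cells. The genes were those with a LINC name followed by a digit, or with a name ending in -AS (antisense), -IT (intronic transcript) or -OT (overlapping transcript) followed by a digit. The promoter and enhancer lists together held 265 such regions among 8819 (3.00%), and they named 192 of 6697 genes. LINC names accounted for 105 regions and 82 genes, antisense names for 125 regions and 96 genes, and intronic transcript names for 35 regions and 14 genes. No region carried an overlapping transcript name of this form.

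NT2/D1, a pluripotent line grown from a human embryonal carcinoma, responds to all-trans retinoic acid (ATRA) by leaving the pluripotent state. Chromatin immunoprecipitation with sequencing (ChIP-seq) was performed in 22 samples, and the 5 region lists used here came from 2 of them, both made with a rat monoclonal H3R2me2a antibody produced in the laboratory. The first was the library of CRISPR/Cas9 control cells given 1 µM ATRA for 3 days, which carried cluster III and the promoter and enhancer lists. The second was the library of CRISPR/Cas9 control cells without ATRA, which carried clusters I and II. Both libraries thus came from control cells, grown in medium with fetal calf serum, and the cells deleted for PRMT6 were not analysed here. There was 1 library per condition, so no difference has a replicate check and no test across conditions was possible.

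H3R2me2a is the asymmetric dimethylation of arginine 2 on histone H3. PRMT6 places it, and at active promoters it counteracts trimethylation of the neighbouring lysine 4. LINC genes lie between coding genes, antisense genes are transcribed from the strand opposite a coding gene and often start next to its promoter, and intronic transcripts come from within an intron of a host gene. Many antisense genes start head to head with a coding gene and share a CpG-rich promoter with it, and other long non-coding RNAs start at enhancers.

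Promoters of 7 member genes are printed so that starts under promoter-list regions can be read beside starts under enhancer-list regions. They were the genes with most tags, by cluster and list, among those with a region within 250 bp of the start and a RefSeq start within 100 bp of the start of the named transcript. Each is given from 250 bases before to 50 bases after the start, 5′ to 3′ on the gene's own strand, from RefSeq on GRCh38.p14, and capitals mark the GC box GGGCGG, the CCAAT box, the TATA-type motif TATAAA and the nuclear receptor half-site AGGTCA on either strand. In the ZBED5-AS1 promoter a GC box and a CCAAT box overlap. The first pair lay under cluster II regions of the promoter list, the next 3 under cluster III regions of the promoter list, and the last pair under cluster III regions of the enhancer list. Starts under enhancer-list regions of clusters I and II that met these limits (C9orf135-AS1, NUCB1-AS1 and LINC00652) are not printed.
RAB30-AS1: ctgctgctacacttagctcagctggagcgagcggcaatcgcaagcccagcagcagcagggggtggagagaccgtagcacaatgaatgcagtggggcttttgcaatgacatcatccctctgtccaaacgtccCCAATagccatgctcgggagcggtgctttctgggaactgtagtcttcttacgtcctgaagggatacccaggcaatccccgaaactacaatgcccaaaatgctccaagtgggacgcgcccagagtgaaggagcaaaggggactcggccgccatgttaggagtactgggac
MYLK-AS1: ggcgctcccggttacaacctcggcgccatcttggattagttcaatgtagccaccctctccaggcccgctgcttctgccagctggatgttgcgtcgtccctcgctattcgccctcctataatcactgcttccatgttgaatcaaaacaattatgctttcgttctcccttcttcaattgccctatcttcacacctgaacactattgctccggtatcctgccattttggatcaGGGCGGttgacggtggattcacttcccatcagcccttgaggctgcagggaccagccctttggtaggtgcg
ZBED5-AS1: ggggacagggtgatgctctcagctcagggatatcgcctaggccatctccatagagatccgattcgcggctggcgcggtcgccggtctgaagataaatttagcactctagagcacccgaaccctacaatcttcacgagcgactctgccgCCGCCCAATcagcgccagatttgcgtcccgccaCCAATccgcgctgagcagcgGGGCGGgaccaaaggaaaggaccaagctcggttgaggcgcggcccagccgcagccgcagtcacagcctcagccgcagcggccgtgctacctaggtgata
PXN-AS1: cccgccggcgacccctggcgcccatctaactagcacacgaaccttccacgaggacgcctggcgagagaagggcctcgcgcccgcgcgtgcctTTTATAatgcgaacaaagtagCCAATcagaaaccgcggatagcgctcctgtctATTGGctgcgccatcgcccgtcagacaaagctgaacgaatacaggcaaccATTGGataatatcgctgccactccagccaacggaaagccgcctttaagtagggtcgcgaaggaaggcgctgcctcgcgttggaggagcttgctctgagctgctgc
C17orf76-AS1: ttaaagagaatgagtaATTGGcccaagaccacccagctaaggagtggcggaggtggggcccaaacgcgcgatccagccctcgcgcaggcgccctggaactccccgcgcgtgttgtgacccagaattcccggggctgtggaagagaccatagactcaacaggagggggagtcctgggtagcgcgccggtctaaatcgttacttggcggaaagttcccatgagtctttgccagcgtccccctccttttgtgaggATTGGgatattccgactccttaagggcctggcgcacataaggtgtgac
CD27-AS1: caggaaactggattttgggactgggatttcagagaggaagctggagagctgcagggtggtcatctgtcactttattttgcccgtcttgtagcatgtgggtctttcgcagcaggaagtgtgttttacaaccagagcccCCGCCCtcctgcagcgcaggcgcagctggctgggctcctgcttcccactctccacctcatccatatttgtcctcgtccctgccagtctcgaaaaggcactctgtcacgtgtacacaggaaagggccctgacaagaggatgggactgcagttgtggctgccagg
TSPAN9-IT1: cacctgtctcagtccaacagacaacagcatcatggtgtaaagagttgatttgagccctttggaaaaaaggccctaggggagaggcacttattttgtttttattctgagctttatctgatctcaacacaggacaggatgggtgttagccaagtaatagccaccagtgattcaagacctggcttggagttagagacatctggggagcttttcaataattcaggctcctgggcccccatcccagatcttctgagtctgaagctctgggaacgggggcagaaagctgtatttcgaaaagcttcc

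The 5 promoters from the promoter list held 13, 14, 28, 29 and 19 CpG dinucleotides in the order printed. The CD27-AS1 and TSPAN9-IT1 promoters from the enhancer list held 8 and 2, the lowest of the 7 enhancer-list genes that met the limits. LINC01082, NUCB1-AS1, C9orf135-AS1, LINC00652 and ZMIZ1-AS1, which are not printed, held 10, 12, 16, 21 and 30. The TSPAN9-IT1 promoter held none of the 4 motifs. RefSeq promoters were found for 144 of the 192 genes. Among the 22 genes with a promoter-list region close to a matching start, the median was 23.5 CpG per 300 bases (range 9 to 46), against 12 at the 7 genes with an enhancer-list region there (range 2 to 30). At the 69 genes whose nearest region lay over 1 kb from the start the median was 5, and over all 35116 RefSeq promoters it was 14. GC boxes were present in 12 of 22 promoters of the promoter list, 4 of 7 of the enhancer list and 15 of the 69 with distant regions, against 45.0% of all promoters. CCAAT was present in 12 of 22, 2 of 7 and 30 of 69 (34.6% of all promoters), TATAAA in 3 of 22, 1 of 7 and 7 of 69 (11.5%), and AGGTCA in 2 of 22, 1 of 7 and 10 of 69 (13.8%). These are matches of letters in a window and not binding sites.

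Member regions lay mostly in the enhancer list. Of the 265, 73 were in the promoter list (27.5%, exact 95% interval 22.3 to 33.3), against 48.0% of all regions. The antisense genes carried most of them, with 47 of 125 regions (37.6%), followed by LINC genes with 26 of 105 (24.8%), and none of the 35 regions of intronic transcripts was in the promoter list, which allows a share of up to 10.0%. Regions nearest to coding genes were in the promoter list at 62.1% (60.9 to 63.4), and those nearest to other non-coding genes at 18.6% (17.0 to 20.2). The share of all member regions lay between these shares. Intervals here and below cover counting error only. What put a region into the promoter or the enhancer list is unstated in the labels and file headers.

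By position, 115 member regions lay in the start window of 1250 bp that the file headers give, 83 in introns, 42 between genes, 13 in exons and 12 in the upstream window. The start-window share was 43.4%, against 67.6% of regions nearest to coding genes and 23.8% of those nearest to other non-coding genes. Regions of intronic transcripts were intronic in 30 of 35 cases (85.7%, 69.7 to 95.2), against 23.0% of all regions. LINC regions were intergenic in 34 of 105 (32.4%, 23.6 to 42.2), against 17.5%. Such names are given to transcripts within an intron or between genes, so these contrasts follow largely from the naming. Antisense regions lay in start windows in 72 of 125 (57.6%, 48.4 to 66.4), an interval that covers the 53.3% of all regions. Within 1 kb of the start lay 100 member regions (37.7%, 31.9 to 43.9), against 50.6% of all regions. By kind the share was 31.4% for LINC, 51.2% for antisense and 8.57% for intronic transcripts, 3 of 35. Only the antisense share was above that of all regions, and its interval (42.1 to 60.2) covers it. The median distance to the start was 4705 bp for LINC, 896 bp for antisense and 17970 bp for intronic transcripts, against 933 bp for all regions. These distances are the authors' own, and the headers do not say whether they run from a region's edge, middle or summit.

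**Figure D1:**
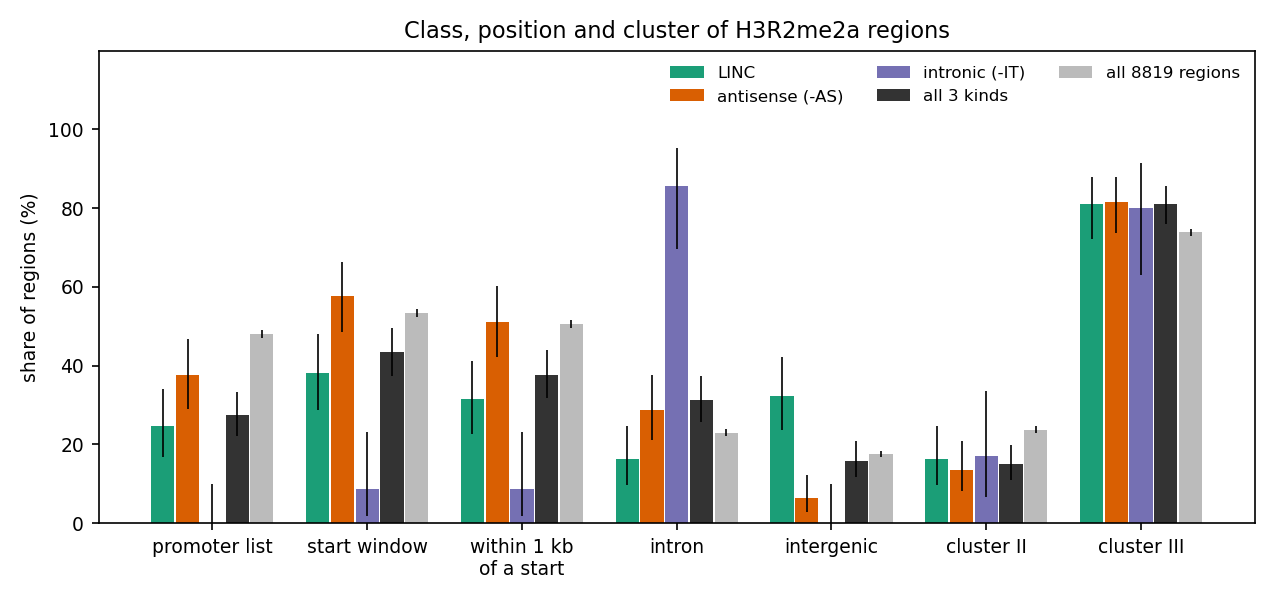
Shares of H3R2me2a regions (%, bars) in the promoter list, by position and by cluster for LINC, antisense, intronic transcript and all member regions, and for all 8819 regions; error bars are exact 95% binomial intervals. Intronic transcript regions have no promoter-list share and 30 of 35 are intronic, and the cluster III share is near 80% for each kind.

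**Figure D2:**
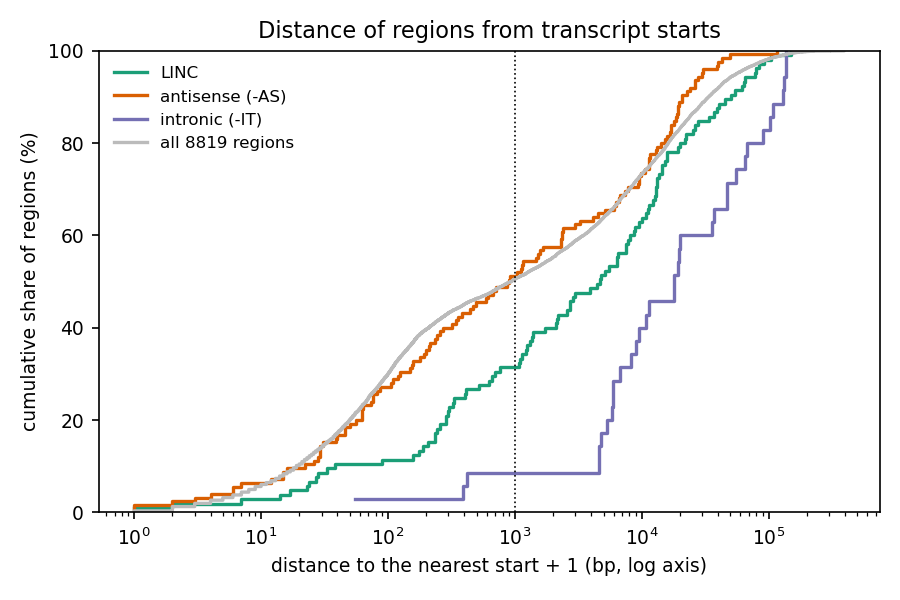
Cumulative share of regions (%) against distance to the nearest transcript start (bp plus 1, log axis) for LINC, antisense and intronic transcript regions and for all 8819 regions; the dotted line is at 1000 bp. The antisense curve runs with that of all regions, and the intronic transcript curve reaches 8.57% at 1 kb.

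Start windows of the non-coding genes were often in the enhancer list. Of the 115 member regions in start windows, 49 were in the enhancer list (42.6%, 33.4 to 52.2), against 15.2% of all start-window regions. LINC genes had 18 of 40, antisense genes 28 of 72 and intronic transcripts 3 of 3. Regions whose nearest gene was coding had 427 of 3913 (10.9%), and regions nearest to other non-coding genes had 210 of 560 (37.5%), so the member share was near that of other non-coding genes. CD27-AS1, an antisense gene at the CD27 receptor locus, was one case: its region spanned chr12:6560317-6561647, 45 bp from the start, with 148 MACS tags in the ATRA library and a tagcount of 88. LINC00649 had a promoter-list region 22 bp from one start (tagcount 208) and an enhancer-list region 331 bp from another (133 MACS tags, tagcount 79).

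A coding start next door went with the promoter list. For 179 of the 192 genes the named transcript was found in GENCODE 44, and distances to coding starts on the opposite strand were taken within hg38. These distances were unsigned, so divergent and overlapping coding starts on that strand were counted together. Such a coding start lay within 1 kb of 33 of 89 antisense genes, 5 of 76 LINC genes and none of 14 intronic transcripts. Among the antisense genes, 28 of the 33 with such a start had a promoter-list region (84.8%, 68.1 to 94.9), against 9 of 56 without one (16.1%, 7.62 to 28.3). The 2 intervals do not overlap. Among LINC genes, 3 of 5 with such a start had a promoter-list region (60%, 14.7 to 94.7), against 21 of 71 without one (29.6%, 19.3 to 41.6), and these intervals overlap. A region within 1 kb of the gene's own start was present at 30 of the 33, against 21 of 56. Where a coding start is this close, such a region can lie at the coding promoter as well, and the starts were not told apart.

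Among the 5 antisense genes with a neighbouring coding start and no promoter-list region were CD27-AS1, C9orf135-AS1 and KIF25-AS1. Promoter-list regions without such a coding start were found at 9 antisense genes, HOXA-AS2, ZNF503-AS2 and PAPPA-AS2 among them. The same split was seen by region. Of the start-window regions, 5 of 37 were in the enhancer list where a coding start lay within 1 kb on the other strand (13.5%, 4.54 to 28.8), against 40 of 66 where none did (60.6%, 47.8 to 72.4). For other non-coding genes the shares were 9 of 155 (5.81%) and 201 of 405 (49.6%), so the split was not particular to the members.

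**Figure D3:**
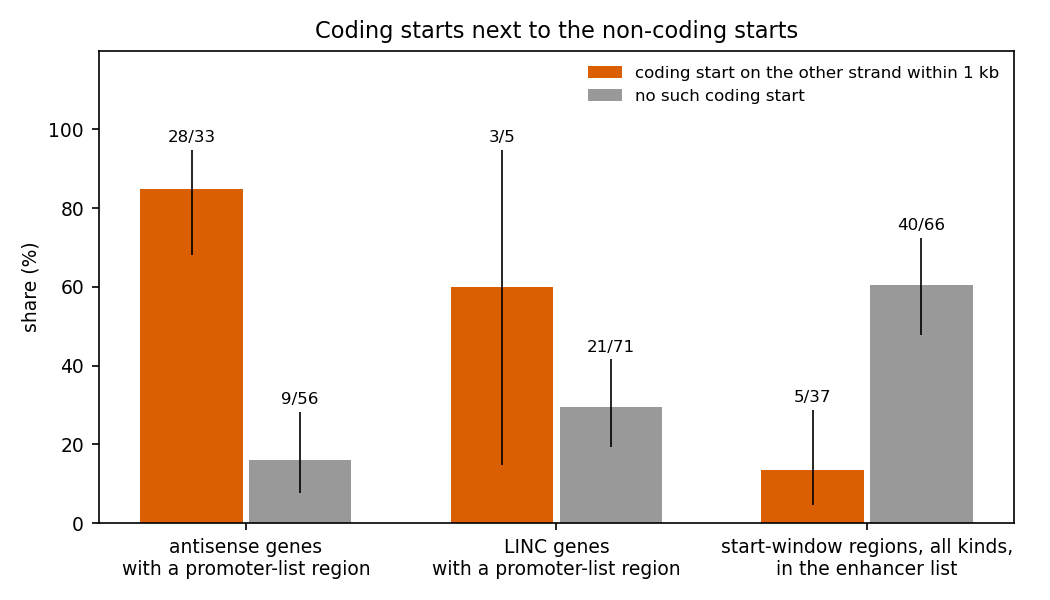
Shares (%, bars, with exact 95% binomial intervals) for genes and regions with a coding start on the other strand within 1 kb and for those without one; counts stand above the bars. Antisense genes with such a start had promoter-list regions at 28 of 33, against 9 of 56 without, and the enhancer-list share of start-window regions was 13.5% with such a start and 60.6% without.

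Pairs with close starts on opposite strands show the arrangement, and their regions are listed under the antisense gene although they can lie at the coding start too. RAB30-AS1, now named RAB30-DT, starts 137 bp from RAB30, which encodes a small GTPase of the Golgi, and its cluster II region (chr11:82782659-82783326) had a tagcount of 169. PCBP1-AS1 starts 173 bp from PCBP1, which encodes a poly(C)-binding protein, and its cluster II region had a tagcount of 197. PXN-AS1 starts 39 bp from the ribosomal protein gene RPLP0, and its cluster III region had 84 MACS tags and a tagcount of 49. ZBED5-AS1 starts 153 bp from ZBED5, and its region had 90 MACS tags and a tagcount of 30. DENND5B-AS1 starts 176 bp from DENND5B, and it had 5 regions, a promoter-list pair 38 and 471 bp from the start with 63 and 67 MACS tags and 3 enhancer-list regions in an intron with 35, 50 and 75. RASSF8-AS1 starts 316 bp from RASSF8 and had promoter-list regions with 80 and 32 MACS tags. In GENCODE 44, 10 of the 179 genes carry a -DT (divergent transcript) name, and 7 of those had a promoter-list region.

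By cluster, 215 of the 265 member regions were in cluster III (81.1%, 75.9 to 85.7), deposited under ATRA, against 73.9% of all regions. A further 40 were in cluster II (15.1%, 11.0 to 20.0), against 23.8% of all regions, and 10 were in cluster I (3.77%, 1.82 to 6.83), against 2.29%. The cluster III share was also taken within each list. Within the enhancer list it was 160 of 192 member regions (83.3%), against 83.2% of all enhancer-list regions. Within the promoter list it was 55 of 73 (75.3%, 63.9 to 84.7), against 63.9%. Regions nearest to coding genes were in cluster III at 70.2%, and those nearest to other non-coding genes at 82.2%. Of the genes, 146 had cluster III regions only, 26 had cluster II only, 5 had cluster I only, and 15 had regions in more than 1 cluster. The same counts over all 6697 genes were not taken, so these gene counts are not a contrast.

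Tags at cluster III members were close to those of all cluster III regions. MACS tags are the tags MACS counted in a region, and tagcount is a second tag column whose values point to the library without ATRA. Sequencing depth is unknown, so the ratio of MACS tags to tagcount plus 1 is not scaled between libraries and its level alone says nothing of a gain. The 215 cluster III member regions had 29 to 328 MACS tags (median 51, against 50 over all cluster III) and tagcounts of 2 to 193 (median 25, against 24). Their ratio had a median of 1.94 (95% interval 1.74 to 2.17), against 2.0 over all cluster III. Within the enhancer list the median was 2.18 for members (1.94 to 2.71), against 2.51 over all cluster III of that list. Within the promoter list it was 1.68 (1.49 to 1.78), against 1.72. At least 4-fold more MACS tags than tagcount plus 1 were found at 41 of 215 (19.1%, 14.0 to 25.0), against 15.3% of all cluster III. Of these, 40 were in the enhancer list, where the share of 25.0% was set beside 25.5% of all, and 1 was in the promoter list, where it was 1 of 55 (1.82%), against 0.923% of all. Shares within a list were thus close to those of all regions.

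**Figure D4:**
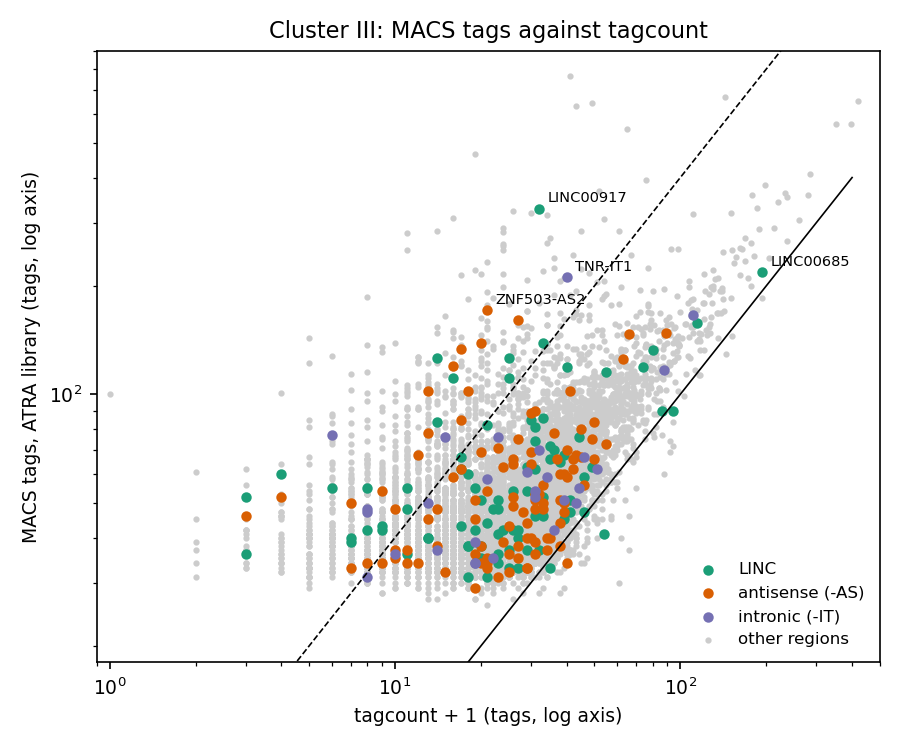
MACS tags of the ATRA library (log axis) against tagcount plus 1 (log axis) for cluster III regions; coloured points are LINC, antisense and intronic transcript regions and grey points are the other regions. The solid line marks equal values and the dashed line a 4-fold ratio; 41 of the 215 coloured points lie on or above the dashed line.

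By MACS tags, which cluster II lacks, the highest member region was at LINC00917, which lies on chromosome 16, 160844 bp from the opposite-strand start of the forkhead gene FOXF1 on hg38. It spanned chr16:86410624-86411737 and had 328 MACS tags and a tagcount of 31. A second cluster III region there had 60 MACS tags and a tagcount of 3, and a cluster II region had a tagcount of 49. LINC00887, whose nearest coding start on the other strand is that of the Notch target gene HES1, 169883 bp away, had 4 cluster III regions with 119, 119, 38 and 126 MACS tags and tagcounts of 73, 39, 19 and 13. Its ratio was highest at the region farthest upstream, 11191 bp from the start. LINC00525 had 126 and 111 MACS tags and tagcounts of 24 and 15. LINC00963 had an enhancer-list region with 51 MACS tags and a tagcount of 19, 37 bp from one start, and a cluster II promoter-list region with a tagcount of 38, 233 bp from another. LINC01063 had a promoter-list region with 31 MACS tags and a tagcount of 17 and an enhancer-list region with 40 MACS tags and a tagcount of 26. LINC00456 on chromosome 13 had 139 MACS tags and a tagcount of 32, and LINC00612 on chromosome 12 had a promoter-list region with 158 MACS tags and a tagcount of 113.

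Developmental antisense genes were also among the cluster III regions. ZNF503-AS1 and ZNF503-AS2 lie beside ZNF503, which encodes a zinc-finger repressor of transcription. ZNF503-AS1 had enhancer-list regions with 120, 134 and 46 MACS tags and tagcounts of 15, 16 and 2, and ZNF503-AS2 had 161, 35 and 171 MACS tags and tagcounts of 26, 9 and 20. All but 1 of these 6 regions had at least 4-fold more MACS tags than tagcount plus 1: the exception was the enhancer-list region of ZNF503-AS2 with 35 MACS tags. The ZNF503-AS2 region with 161 MACS tags, 243 bp from the start, was the only promoter-list member region past that fold. HOXA-AS2, antisense within the HOXA cluster of body-axis regulators, had 3 cluster III regions with 33, 59 and 51 MACS tags and tagcounts of 20, 15 and 18. HOXB-AS1 had 38 MACS tags and a tagcount of 13, and HOXD-AS1, now HAGLR, had 53 MACS tags and a tagcount of 31. DLX6-AS1, which in mouse regulates the Dlx5 and Dlx6 homeobox genes, had a cluster I region with 59 MACS tags and a tagcount of 63 and a cluster III region with 29 MACS tags and a tagcount of 18. NR2F2-AS1, beside the retinoid-responsive nuclear receptor gene NR2F2, had 89 MACS tags and a tagcount of 29. LINC00554, next to ZIC2 and ZIC5, had 51, 47 and 90 MACS tags and tagcounts of 40, 45 and 85.

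Intronic transcripts carried their regions inside large host genes. CACNA1C encodes a pore-forming subunit of voltage-gated calcium channels, and 5 of its antisense and intronic transcripts were named. CACNA1C-IT3 had 7 regions, 1 in cluster II with a tagcount of 101 and 6 in cluster III with 42 to 76 MACS tags. Its tagcounts in cluster III ran between 14 and 50, and the region with 76 MACS tags had the tagcount of 14. CACNA1C-IT1 had 117 MACS tags and a tagcount of 87, 390 bp from its start. The antisense genes of the locus had values that overlap those of CACNA1C-IT3, with 73 MACS tags and a tagcount of 54 at CACNA1C-AS1 and 38 MACS tags and a tagcount of 19 at CACNA1C-AS2. CACNA1C-AS4 had 56 and 60 MACS tags and tagcounts of 45 and 38. TNR encodes the matrix protein tenascin-R, and TNR-IT1 had 212, 58 and 47 MACS tags and tagcounts of 39, 20 and 7, all in introns. TSPAN9 encodes a tetraspanin, and TSPAN9-IT1 had a cluster I region (31 MACS tags, tagcount 35) and cluster III regions with 50, 67 and 166 MACS tags and tagcounts of 42, 45 and 110. NRG1 encodes neuregulin 1, and NRG1-IT3 had 77, 36 and 76 MACS tags and tagcounts of 5, 9 and 22. OPCML-IT1, inside the gene of a neural adhesion protein, had 37, 55 and 35 MACS tags and tagcounts of 13, 43 and 21. RASA3-IT1, in the gene of a Ras GTPase-activating protein, had a cluster II pair with tagcounts of 49 and 63 and a cluster III pair with 31 and 34 MACS tags and tagcounts of 7 and 18. KIRREL-IT1, in the gene of an adhesion protein of the kidney filter, had a cluster II region with a tagcount of 43 between cluster III regions with 51 and 39 MACS tags and tagcounts of 38 and 18. Both regions of ERI3-IT1 were in cluster III, with 34 and 59 MACS tags and tagcounts of 18 and 33.

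Other antisense genes had several regions each. SETD5-AS1, beside a SET-domain gene, had promoter-list regions with 36 and 147 MACS tags and tagcounts of 18 and 65, at 177 and 124 bp from the start. TRAF3IP2-AS1 had a promoter-list region with 33 MACS tags and a tagcount of 28 and an intronic enhancer-list region with 64 MACS tags and a tagcount of 25. PAPPA-AS2, inside the gene of the protease PAPP-A, had 3 promoter-list regions that lay in an intron, 19279, 18678 and 16720 bp from the start, with 71, 66 and 44 MACS tags and tagcounts of 22, 25 and 37. Its enhancer-list regions were one of cluster III with 66 MACS tags and a tagcount of 49 and one of cluster II with a tagcount of 38, and PAPPA itself was not named by any region.

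CACNA2D3-AS1, in the gene of a calcium channel auxiliary subunit, had 37, 54 and 75 MACS tags and tagcounts of 10, 8 and 26, all in the enhancer list. MRPL23-AS1 had 78 and 139 MACS tags and tagcounts of 12 and 19, and both of its regions were past the 4-fold limit. CLYBL-AS1 had 64 and 44 MACS tags with tagcounts of 29 and 28, SRGAP2-AS1 had 78 and 37 with tagcounts of 35 and 33, and DNAJB8-AS1 had 50 and 33 with tagcounts of 32 and 28. ADAMTSL4-AS1 had 37 and 39 MACS tags with tagcounts of 9 and 30. ZNF674-AS1 had 35 MACS tags and a tagcount of 20 in the enhancer list, 6261 bp from its start, although a coding start lies 70 bp from that start on the other strand.

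**Figure D5:**
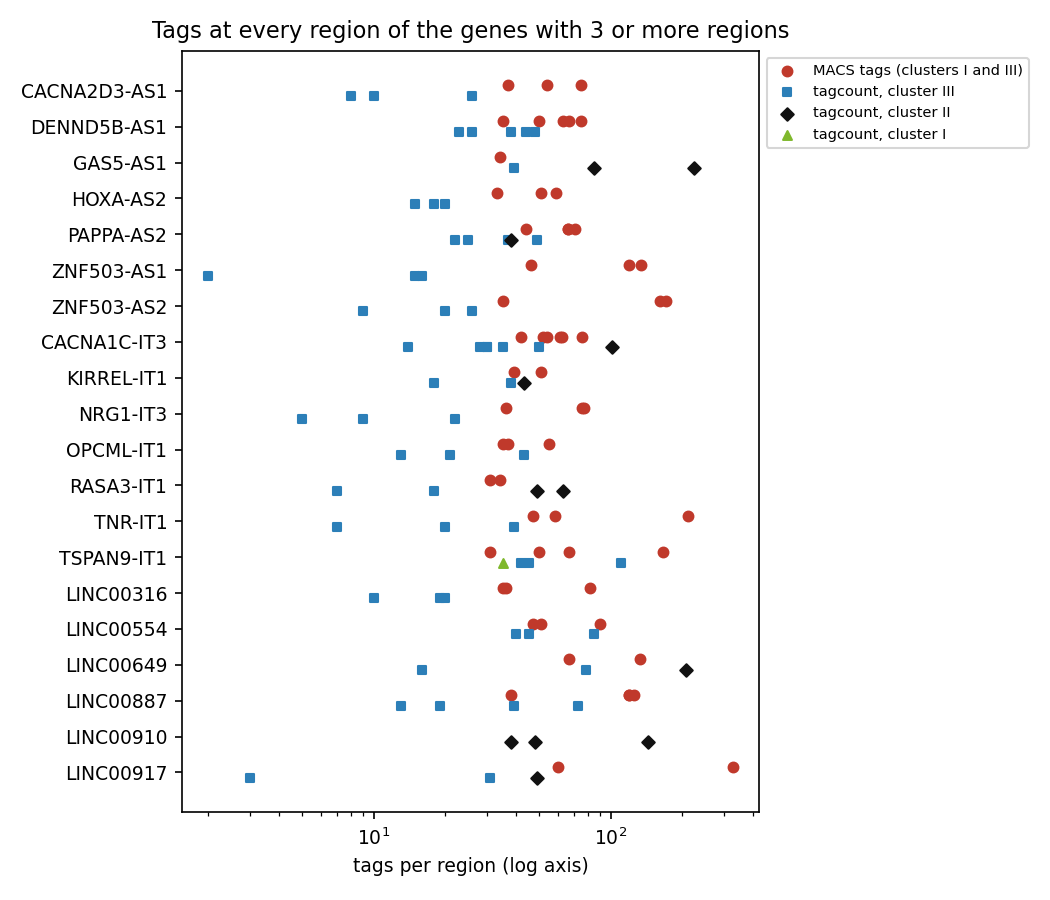
Tags (log axis) at every region of the 20 genes with 3 or more regions; circles are MACS tags of clusters I and III and other markers are tagcounts by cluster. LINC00917 has the region with 328 MACS tags, and all 3 LINC00910 regions are in cluster II.

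Partner genes of the antisense and intronic genes were taken from the names. By name, 93 antisense genes had a partner that is a gene, 92 of them coding and 1, GAS5, non-coding. For 40 of the 93 the partner was itself named as nearest to a region (43.0%, 32.8 to 53.7), and for 39 of the 92 with a coding partner (42.4%, 32.1 to 53.1). The share over all coding genes of GENCODE 44 was 22.5%, a background that is not matched for length or expression. It counts each gene once, whereas a partner with several antisense genes recurs among the 93. Counted once each, 35 of 87 partners were named. Partners were also reached through genes that already had a region, unlike coding genes at large, so the shares are not like for like. The partner was in the promoter list for 15 of 93 and in the same cluster for 33 of 93. Each region names only 1 nearest transcript, so a region at a shared promoter that names the antisense gene cannot name its partner. PCBP1 and WDR11, for example, were named by no region, with starts 173 and 153 bp from those of their antisense genes. The partner shares and the gaps below depend on this assignment. For 10 of 14 intronic transcripts the host was named too. The gap between member and partner regions had a median of 41624 bp for antisense genes and 53600.5 bp for intronic transcripts, and it was within 10 kb for 8 of 40 antisense genes and none of 10 intronic transcripts. CACNA1C itself had 8 regions beside those of its non-coding genes.

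Cluster II member regions had a median tagcount of 56, with an interval of 49 to 76 that covers the 69 of all cluster II, and the antisense genes alone had 74. Within the enhancer list the medians were 55 for members (43 to 85) and 59 for all cluster II, and within the promoter list 58.5 for members (41 to 128) and 74 for all. The highest were GAS5-AS1, antisense to the growth-arrest gene GAS5 that hosts snoRNAs, with 224 and a second region with 85, followed by LINC00649 with 208, PCBP1-AS1 with 197, RAB30-AS1 with 169, LINC00910 with 144 and MYLK-AS1 with 128. On the other strand, LINC00649 starts 74 bp from the coding gene ATP5PO and MYLK-AS1 starts 489 bp from HACD2. Their regions can therefore lie at the coding starts too. LINC00910 had 3 regions, all in cluster II, with 144, 38 and 48. In the promoter list were 18 of the 40 cluster II members (45.0%, 29.3 to 61.5), against 71.6% of all cluster II.

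The 10 cluster I member regions were all in the enhancer list (interval 69.2 to 100%), against 177 of 202 for all cluster I (87.6%), and had 31 to 80 MACS tags. Their tagcounts were 0 to 6 tags higher. LINC00269 had 80 MACS tags and a tagcount of 80 on chromosome X, 84739 bp from the start, and a cluster III region with 55 MACS tags and a tagcount of 7. DLGAP1-AS4 had 56 MACS tags and a tagcount of 57, LINC01036 had 52 MACS tags and a tagcount of 56, C9orf135-AS1 had 50 MACS tags and a tagcount of 52, and A2ML1-AS2 had 48 MACS tags and a tagcount of 51. A2ML1-AS1 had 44 MACS tags and a tagcount of 48 next to a cluster III region with 38 MACS tags and a tagcount of 37. NAV2-AS3 had 43 in both columns. LINC00942 had 35 MACS tags and a tagcount of 41, and its cluster III region had 70 MACS tags and a tagcount of 35. DLX6-AS1 and TSPAN9-IT1 made up the rest, and 6 of the 10 regions were in introns (interval 26.2 to 87.8%), against 40.6% of all cluster I. Of the 10 genes, 5 also had cluster III regions, and the same share over all cluster I genes was not taken.

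At the low end of the ratio, 4 of 215 cluster III members had fewer MACS tags than tagcount (1.86%, 0.509 to 4.69), against 83 of 6519 for all cluster III (1.27%). LINC00969 had 41 against a tagcount of 53 and 90 against 93, GAS5-AS1 had 34 against 39, and LINC00685 had 33 against 34. The other LINC00685 region had 218 MACS tags and a tagcount of 193. At the high end were LINC00907 (52 MACS tags, tagcount 2), LINC00917 (60 MACS tags, tagcount 3), ZNF503-AS1 (46 MACS tags, tagcount 2), ADARB2-AS1 (52 MACS tags, tagcount 3) and NRG1-IT3 (77 MACS tags, tagcount 5). Their tagcounts of 2 to 5 leave these ratios imprecise.

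Beside the antisense genes of HOX, DLX6, ZNF503 and GAS5, the list of known genes held 5 LINC genes with regions. LINC00657, now NORAD, which binds Pumilio proteins, had a promoter-list region with 66 MACS tags and a tagcount of 34. LINC00152, now CYTOR, had 40 MACS tags and a tagcount of 6. LINC00478, now MIR99AHG, the host gene of miR-99a, had a cluster III start-window region with 62 MACS tags and a tagcount of 30 and a cluster II region with a tagcount of 36. LINC00511 had a cluster II region with a tagcount of 41, and LINC00467 had a promoter-list region with 46 MACS tags and a cluster II region with a tagcount of 106. Of the 52 known genes on a list of such names, 12 were named by a region, beside 22.5% of all coding genes of GENCODE 44. The share over all non-coding genes was not taken. Outside the name rule, 12 of 38 listed genes and 7 SNHG genes had 41 regions. Of these, 28 were in the promoter list (68.3%, 51.9 to 81.9), against 48.0% of all regions.

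Member regions were spread unevenly over chromosomes. On chromosome 13 they were 26 of 152 regions (17.1%, 11.5 to 24.1), 16 of them LINC, and on chromosome 21 they were 18 of 178 (10.1%, 6.10 to 15.5), again 16 of them LINC. On chromosome 13, LINC00379 had 42 and 43 MACS tags with tagcounts of 18 and 16, and on chromosome 21, LINC00316 had 82, 35 and 36 MACS tags with tagcounts of 20, 19 and 10. Over all chromosomes the share was 3.00%. Chromosome 12 held 35 of 1030 (3.40%), and chromosome 1 held 30 of 1634 (1.84%, 1.24 to 2.61). How many such names each chromosome carries was not compared. Names have changed since the annotation used: 36 of 179 transcripts bear another name in GENCODE 44, and 7 belong to protein-coding genes there, among them LINC00998, now SMIM30, NCBP2-AS2, now NCBP2AS2, and HNRNPU-AS1, now HNRNPU. Of the rest, 1 belongs to a small nuclear RNA gene (LINC00910) and 1 to a transcribed pseudogene (LINC01057).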

How the data were processed

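Per the submitters' processing notes, the build was hg19 (GRCh37) and the tools were Bowtie2, bcl2fastq, deepTools and MACS 1.4. Each list gives unscaled tag counts as the authors deposited them, with the nearest transcript, its signed distance and a position class. No header names the library of the tagcount column. In cluster I (202 regions) tagcount exceeded MACS tags by 0 to 8, and no cluster I or cluster II region had a tagcount under 35, whereas cluster III went down to 0. Cluster II holds 2 intervals per region, of which the first was used.

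The lists were joined by coordinates with Python 3.11.15 and pandas 2.3.3. Shares carry exact Clopper-Pearson 95% intervals (scipy 1.17.1) and medians order-statistic 95% intervals, tested on simulated data. The fold rule was MACS tags at least 4 times tagcount plus 1. GENCODE 44 and RefSeq gave names, coding starts and promoters on hg38, never compared with hg19 coordinates. Regions of 1 transcript disagreed on its start by a median of 100 bp. The members and lists were chosen with earlier results of these data known. Named genes were those with 2 or more regions, in cluster I, with extreme tags or ratios, with a developmental partner or on the list of known genes. Others named were chosen after their values were seen. Alternatives left out chromosome 12, kept regions at or above the median tagcount, took 1 region a gene, split the kinds and moved each limit. Depth is unknown.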

Additional observations from a re-analysis of the deposited data

How the results depend on the processing

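Of 50 alternatives, 42 were set beside the value over all regions. Of these, 29 stayed within the counting interval of the main value and on the same side of the value over all regions. A further 8 left that interval on the same side, some of them nearer to the value over all regions, and 5 changed the side. Of the 8 alternatives on partners and neighbouring coding starts, 7 stayed within the interval and 1 left it. The share within 1 kb of the start lay above that of all regions for antisense genes alone, at 51.2%. The median ratio lay above that of all cluster III without chromosome 12, at 2.12 against 2.05, and for LINC genes alone, at 2.09. The median tagcount of cluster II was 74 for antisense genes alone, against 69, and the share at 2-fold was 49.3%, against 50.1% of all cluster III. With regions at or above the median tagcount only, the cluster III share was 64.4% (51.2% of all regions), the promoter-list share 20.0% (48.3%), the median ratio 1.54 (1.56) and the 4-fold share 5.75% (3.04%). The promoter-list share was 37.6% for antisense genes alone. The share within the start distance was 31.4% for LINC genes alone and 47.2% at 2500 bp. The share at 8-fold was 4.65%, and 16.1% of antisense genes had a partner in the promoter list. The tagcount cut removed mostly cluster III regions, as no cluster I or cluster II region had a tagcount under 35. Tagcount also divides the ratio, so this cut lowers the cluster III share, the median ratio and the 4-fold share by construction. Higher limits and fewer regions likewise change counts by construction. Beyond this, the cause was not tested. The share of antisense genes with a neighbouring coding start that had a promoter-list region was 86.7% at 500 bp, 71.4% at 5000 bp and 85.7% without chromosome 12; these alternatives, the one with coding partners only and those for start windows in the enhancer list were chosen after seeing the data. No paired analysis was possible because there was 1 library per condition. With unknown depth and 1 library each, differences in tags between conditions cannot be told apart from differences in depth.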

Other observations

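Cluster II gives a second interval per region with its own nearest gene. By that interval 1 further region named a gene of the rule, and 2 of the 40 cluster II member regions had another gene name.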
